A study of Homo sapiens with 16 samples.

Results

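The MHC class I antigen presentation genes described here are 9 genes, HLA-B, HLA-C, HLA-E, HLA-F, B2M, TAP1, TAP2, TAPBP and NLRC5, chosen by symbol from the 28277 gene symbols measured in 2 human multiple myeloma cell lines. Messenger RNA was profiled in INA6, a plasma cell line known to need interleukin 6 for growth, and in JJN3, which grows without it. KANSL2, a subunit of the NSL complex that holds the histone H4 acetyltransferase KAT8, was repressed by CRISPR interference, in which an inactive Cas9 joined to a repressor domain is guided to a gene. The comparison asked how the class I genes stood in KANSL2 knockdown cells against cells with a non-targeting guide. The 4 groups were INA6 with KANSL2 knockdown, INA6 with a non-targeting control, JJN3 with KANSL2 knockdown and JJN3 with a non-targeting control, each with 3 libraries, and the cells are labelled as untreated. The CRISPR machinery was part of both arms, and the time of RNA harvest, the number of guides and the clonality of the lines are not given in the labels. The labels do not say whether replicates were separate cultures, so a p-value here compares libraries whose spread may be only technical.

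MHC class I molecules show peptides from inside a cell to CD8 T cells, and in low amounts they leave the cell open to natural killer cells. A heavy chain (HLA-B and HLA-C are classical chains, HLA-E and HLA-F nonclassical ones) pairs with beta-2 microglobulin, the product of B2M. Peptides cut by the proteasome enter the endoplasmic reticulum through the transporter TAP1/TAP2, and tapasin, the product of TAPBP, helps to load them. NLRC5 is a transactivator that raises class I transcription together with the RFX, CREB/ATF and NF-Y factors bound to the promoters, and plasma cells are known to express class I on their surface.

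Promoter sequence is shown for the 4 members that were lower in knockdown cells of at least 1 line, so that the promoter boxes of heavy and light chains can be set side by side. Each window runs from position −160 to −41 relative to the RefSeq start on the GRCh38.p14 assembly, 5′ to 3′ on the strand of the gene. The windows are chr6:31357220-31357339 on the minus strand for HLA-B, chr6:31272133-31272252 on the minus strand for HLA-C, chr6:29723274-29723393 on the plus strand for HLA-F and chr15:44711357-44711476 on the plus strand for B2M. Capitals mark matches on either strand to CCAAT, the NF-Y box, to TGACG, the core of the site of CREB/ATF factors, or to GAAANNGAA, the core of an interferon-stimulated response element.
HLA-B: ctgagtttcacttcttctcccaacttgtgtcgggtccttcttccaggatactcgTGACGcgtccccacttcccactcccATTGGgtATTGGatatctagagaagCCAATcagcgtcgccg
HLA-C: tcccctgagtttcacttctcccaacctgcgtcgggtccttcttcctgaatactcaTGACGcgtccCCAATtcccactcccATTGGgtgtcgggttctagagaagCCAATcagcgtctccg
HLA-F: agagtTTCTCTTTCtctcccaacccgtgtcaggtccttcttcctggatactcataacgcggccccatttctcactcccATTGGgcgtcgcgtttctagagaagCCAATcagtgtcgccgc
B2M: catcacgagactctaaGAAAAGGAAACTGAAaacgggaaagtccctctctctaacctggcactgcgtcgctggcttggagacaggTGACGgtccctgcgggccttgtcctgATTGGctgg

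HLA-B and HLA-C each held TGACG upstream of reverse and forward CCAAT boxes, at −106 and −105, and both held the forward CCAAT at −56. HLA-F held its forward CCAAT at −57, no TGACG, and a reverse match to GAAANNGAA at −155. B2M held 1 CCAAT in reverse at −49, TGACG at −75, and a pair of overlapping GAAANNGAA matches at −144 and −138. Among 34941 RefSeq promoters of 250 bases before to 50 after a start, 34.6% held CCAAT, 24.5% TGACG and 8.10% GAAANNGAA. Promoters with at least 1 match to CCAAT or TGACG are thus common, and those with GAAANNGAA less so. TTCNNNGAA, the core of the gamma-activated site, was in 7.66% of the promoters and in none of the promoters of these 4 genes. The promoter table held 7 of the 9 members, and HLA-E and NLRC5 are named only. A match describes letters and shows no binding. Only exact matches were marked, so a promoter without a match to a motif may still hold a variant of it.

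The values are regularised log (rlog) values on the log2 scale, made for each line separately, so differences were computed within a line and levels were not compared between lines. A difference is the knockdown mean minus the non-targeting mean, and a gene was called when its limma p-value, adjusted by the Benjamini-Hochberg method over all genes with a mean of at least 3, was below 0.05. The target, KANSL2 on chromosome 12 (48653211 to 48682238), had 76.4% of the non-targeting level in INA6 knockdown cells and 43.1% in JJN3 knockdown cells (differences of −0.39 with SE 0.0625 and −1.21 with SE 0.0559, adjusted p = 3.06e-05 and 1.48e-16 from limma). Changes were widespread in both lines. In INA6, 24.7% of 12511 tested genes were called higher and 24.0% lower, and 55.2% had knockdown libraries that did not overlap the non-targeting ones. In JJN3 the shares were 25.5% higher, 25.5% lower and 56.1% without overlap, of 12282 tested genes. After centring each library on its median, 3904 genes were called higher and 2400 lower in INA6, against 3084 and 3000 before, and 3768 and 2571 in JJN3, against 3135 and 3129. All 10 plasma cell markers were above the minimum in both lines. In INA6 7 of them were lower and 2 higher (mean of the list 11.90 to 12.03 in knockdown and 12.27 to 12.31 in non-targeting libraries), and in JJN3 1 was lower and 6 higher (11.50 to 11.54 and 11.31 to 11.38).

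In INA6 knockdown cells HLA-B, HLA-C, HLA-F and B2M were called lower by small amounts, 0 members were called higher, and TAPBP and NLRC5 were not called. That is 4 of the 6 members that passed the minimum, beside 24.0% of all tested genes, and 3 of the 6 had groups that did not overlap, beside 55.2%. In JJN3 HLA-C alone was lower, 1 of 6 beside 25.5%, and 2 of 6 did not overlap, beside 56.1%. The median difference of the 6 was −0.19 (range −0.30 to −0.04) in INA6 and −0.06 (−0.26 to 0.07) in JJN3, against 0.000936 and 0.00104 for all tested genes. HLA-E, TAP1 and TAP2 were under the minimum in both lines. In bulk RNA, fewer cells that express a gene and less RNA of it per cell cannot be told apart. The change of the plasma cell markers ran the same way in INA6, and its part in the class I differences was not tested.

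**Figure D1:**
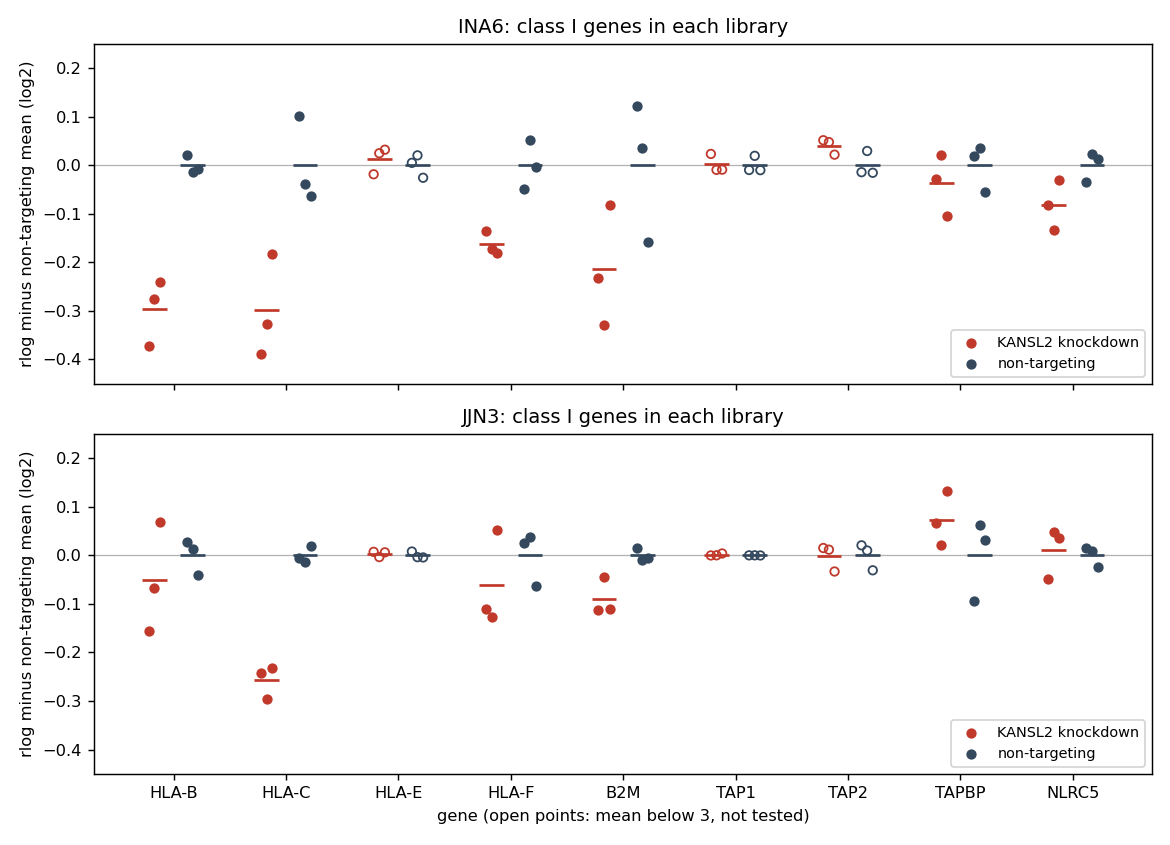
The rlog value of each class I gene in each library, minus the non-targeting mean of its line (vertical axis, log2), with INA6 above JJN3. Points are libraries, bars are means, red is KANSL2 knockdown and dark grey the non-targeting control, and open points mark genes under the minimum; in INA6 all knockdown points of HLA-B, HLA-C and HLA-F lie below all non-targeting points.

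HLA-C, a classical heavy chain that also binds inhibitory receptors of natural killer cells, was the member that was lower in both lines. It lies on chromosome 6 from 31268749 to 31272092. In INA6 its rlog values were 10.39, 10.46 and 10.60 in knockdown libraries, against 10.88, 10.74 and 10.72 in non-targeting libraries. Every knockdown library was below every non-targeting library. The means of 10.48 ± 0.106 and 10.78 ± 0.0884 (SD, n = 3 each) differ by −0.30 (SE 0.0544, 95% interval −0.41 to −0.19), which is 81.3% of the non-targeting level (limma adjusted p = 0.000118). In JJN3 the values were 8.54, 8.48 and 8.55 in knockdown libraries, against 8.77, 8.76 and 8.80 in non-targeting libraries. The groups again did not overlap, and the gap was larger than the spread inside either. The means of 8.52 ± 0.0340 and 8.78 ± 0.0175 (SD, n = 3 each) differ by −0.26 (SE 0.0481, interval −0.35 to −0.16), 83.7% of the non-targeting level (limma adjusted p = 5.00e-05). The difference in INA6 minus that in JJN3 was −0.04 (interval −0.19 to 0.10), which was not called (adjusted p = 0.703 from the limma differences).

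HLA-B, the other classical chain measured here, lies on chromosome 6 from 31353875 to 31357179, and it differed between the lines. In INA6 its values were 9.68, 9.78 and 9.81 in knockdown libraries, against 10.07, 10.04 and 10.05 in non-targeting libraries. The knockdown libraries were all lower, without overlap. The means of 9.76 ± 0.0692 and 10.05 ± 0.0187 (SD, n = 3 each) differ by −0.30 (SE 0.0482, interval −0.40 to −0.20), 81.5% of the non-targeting level (limma adjusted p = 3.55e-05). In JJN3 the values were 11.69, 11.77 and 11.91 in knockdown libraries, against 11.87, 11.85 and 11.80 in non-targeting libraries. One knockdown library was above all the non-targeting libraries there, and the other pair below. The means of 11.79 ± 0.113 and 11.84 ± 0.0353 (SD, n = 3 each) differ by −0.05 (SE 0.0450, interval −0.14 to 0.04), which was not called (limma adjusted p = 0.352). Without that highest library, replicate 3, the JJN3 difference was −0.11 with a limma adjusted p = 0.0227, and without knockdown replicate 1 it was near 0 (0.0006). With quantile normalisation HLA-B was called lower in JJN3 (−0.15, limma adjusted p = 0.00574).

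The difference of HLA-B in INA6 minus that in JJN3 was −0.24 (SE 0.0659, interval −0.38 to −0.11), with adjusted p = 0.00338 from the limma differences. HLA-B was the 1 member of 6 for which this difference was called, beside 30.0% of the 11137 genes tested in both lines. The difference of KANSL2 itself ran the other way, −0.39 in INA6 and −1.21 in JJN3, so the line with the larger difference of HLA-B had the smaller one of the target. Classical HLA genes are near-identical in long stretches, so reads can be split or moved between them by the counting, and each HLA value is uncertain to that extent.

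HLA-F, a nonclassical chain known as a ligand of natural killer cell receptors, lies on chromosome 6 from 29723434 to 29738532 and had values close to the minimum in INA6. There its values were 3.05, 3.01 and 3.00 in knockdown libraries, against 3.13, 3.23 and 3.18 in non-targeting libraries. The groups did not overlap. The means of 3.02 ± 0.0235 and 3.18 ± 0.0499 (SD, n = 3 each) differ by −0.16 (SE 0.0409, interval −0.25 to −0.08), 89.3% of the non-targeting level (limma adjusted p = 0.00235). The rlog transformation shrinks genes with few reads, so a difference at this level may be understated. In JJN3 the values were 4.11, 4.10 and 4.28 in knockdown libraries, against 4.25, 4.26 and 4.16 in non-targeting libraries. These groups overlapped, since knockdown replicate 3 was the highest of all 6 libraries. The difference of −0.06 (SE 0.0464, interval −0.16 to 0.03) was not called (limma adjusted p = 0.275), but it was −0.12 with a limma adjusted p = 0.0428 when that library was left out.

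B2M, the light chain without which class I heavy chains do not reach the surface, lies on chromosome 15 from 44711517 to 44718145. In INA6 its values were 6.37, 6.28 and 6.52 in knockdown libraries, against 6.73, 6.64 and 6.45 in non-targeting libraries. The groups overlapped, because non-targeting replicate 3 was below knockdown replicate 3. The means of 6.39 ± 0.124 and 6.60 ± 0.144 (SD, n = 3 each) differ by −0.21 (SE 0.0765, interval −0.37 to −0.06), 86.2% of the non-targeting level (limma adjusted p = 0.0247). This call was lost with median centring (limma adjusted p = 0.0557), with quantile normalisation (0.139), and without knockdown replicate 2 (0.139), non-targeting replicate 1 (0.148) or non-targeting replicate 2 (0.0837). In JJN3 the values were 6.95, 7.01 and 6.95 in knockdown libraries, against 7.07, 7.05 and 7.05 in non-targeting libraries. All knockdown libraries were lower there, but by little. The difference of −0.09 (SE 0.0554, interval −0.20 to 0.02) was not called (limma adjusted p = 0.183).

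**Figure D2:**
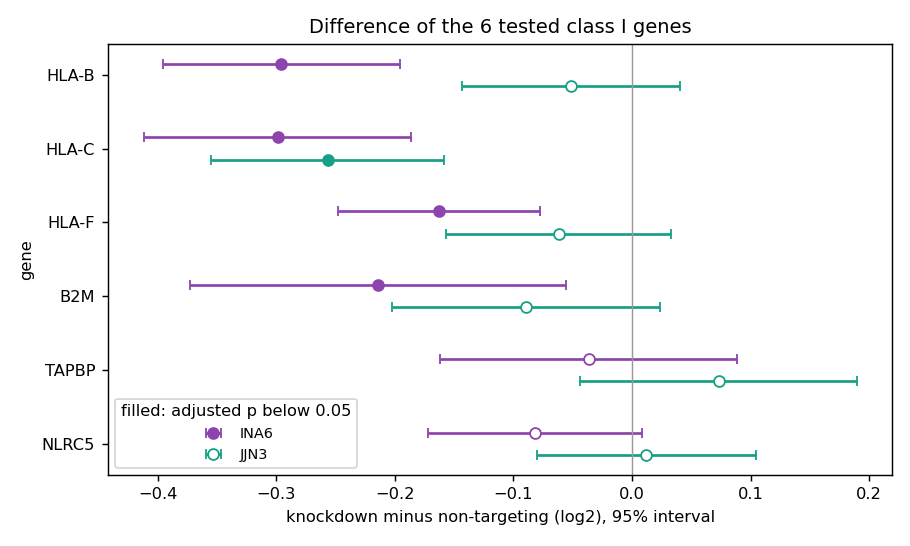
Knockdown minus non-targeting difference of the 6 tested class I genes on the log2 scale (horizontal axis) with 95% intervals, n = 3 libraries per arm, INA6 in purple and JJN3 in green. Filled points were called and white ones were not; in INA6 the 4 called members lie between −0.30 and −0.16, and in JJN3 HLA-C is the called member at −0.26.

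The loading factor and the transactivator were not called in either line. TAPBP, which encodes tapasin, lies on chromosome 6 from 33299694 to 33314078. Its values in INA6 were 5.58, 5.63 and 5.50 in knockdown libraries, against 5.62, 5.64 and 5.55 in non-targeting libraries, a difference of −0.04 (SE 0.0602, interval −0.16 to 0.09, limma adjusted p = 0.641). In JJN3 they were 6.11, 6.06 and 6.18 in knockdown libraries, against 5.95, 6.11 and 6.07 in non-targeting libraries, a difference of 0.07 (SE 0.0571, interval −0.04 to 0.19, limma adjusted p = 0.295). The groups overlapped in both lines, and the sign in INA6 turned positive with median centring (0.0007) and with quantile normalisation (0.01).

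NLRC5, the transactivator that acts at class I promoters, lies on chromosome 16 from 56989557 to 57083520. Its values in INA6 were 11.10, 11.05 and 11.15 in knockdown libraries, against 11.15, 11.20 and 11.19 in non-targeting libraries, a difference of −0.08 (SE 0.0434, interval −0.17 to 0.01, limma adjusted p = 0.127). In JJN3 they were 9.34, 9.43 and 9.42 in knockdown libraries, against 9.40, 9.40 and 9.36 in non-targeting libraries, a difference of 0.01 (SE 0.0453, interval −0.08 to 0.10, limma adjusted p = 0.843). Groups overlapped in both lines, and the part of NLRC5 in the differences of HLA-B and HLA-C was not tested. With quantile normalisation, however, NLRC5 was called lower in INA6 (−0.16, limma adjusted p = 0.00374). The difference in INA6 minus that in JJN3 was −0.09 for NLRC5, −0.11 for TAPBP, −0.10 for HLA-F and −0.13 for B2M, and none of these was called (adjusted p = 0.267, 0.334, 0.220 and 0.331 from the limma differences).

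HLA-E, TAP1 and TAP2 had means under 3 and were not tested. HLA-E, a nonclassical chain that is the ligand of the receptor CD94/NKG2A (chromosome 6, 30489509 to 30494194), had 1.49, 1.53 and 1.54 in INA6 knockdown libraries, against 1.51, 1.53 and 1.48 in non-targeting libraries, and between −1.03 and −1.02 in all JJN3 libraries. TAP1 (chromosome 6, 32845209 to 32853704), a subunit of the peptide transporter, had −0.54, −0.57 and −0.57 in INA6 knockdown libraries, against −0.57, −0.54 and −0.57 in non-targeting libraries. In JJN3 TAP1 was at −1.97 to −1.96, at or next to the lowest value of that table. TAP2 (chromosome 6, 32821831 to 32838739), the other subunit, had 1.20, 1.19 and 1.17 in INA6 knockdown libraries, against 1.13, 1.18 and 1.13 in non-targeting libraries, and 2.15, 2.14 and 2.10 in JJN3 libraries of both arms. The largest of their differences was 0.04, for TAP2 in INA6, and a change was not detectable at values this low. In a fit without the minimum, none of the 3 was called in either line (limma adjusted p between 0.166 and 0.967).

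Low values were common across the whole chromosome 6 span that holds 7 of the 9 members, a description made after the values were seen. Between HLA-F and TAPBP (29723434 to 33314078), 124 of 135 protein-coding genes, or 91.9%, had a mean under 3 in INA6, against 42.2% of 854 genes on the rest of chromosome 6 and 41.2% of 17882 genes on the other chromosomes. In JJN3 the share was 120 of 135, or 88.9%, against 42.6% and 41.6%. The median mean rlog in the span was 0 in both lines, against 5.17 in INA6 and 5.31 in JJN3 on the rest of the chromosome. These values are not per gene length. The human assembly is known to carry alternate haplotype sequences of this region, and the part of read assignment in the low values was not tested. A low value of HLA-E, TAP1 or TAP2 therefore does not show that the gene was silent. The tested members HLA-B, HLA-C, HLA-F and TAPBP lie in the same span, and the part of read assignment in their values was not tested either.

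**Figure D3:**
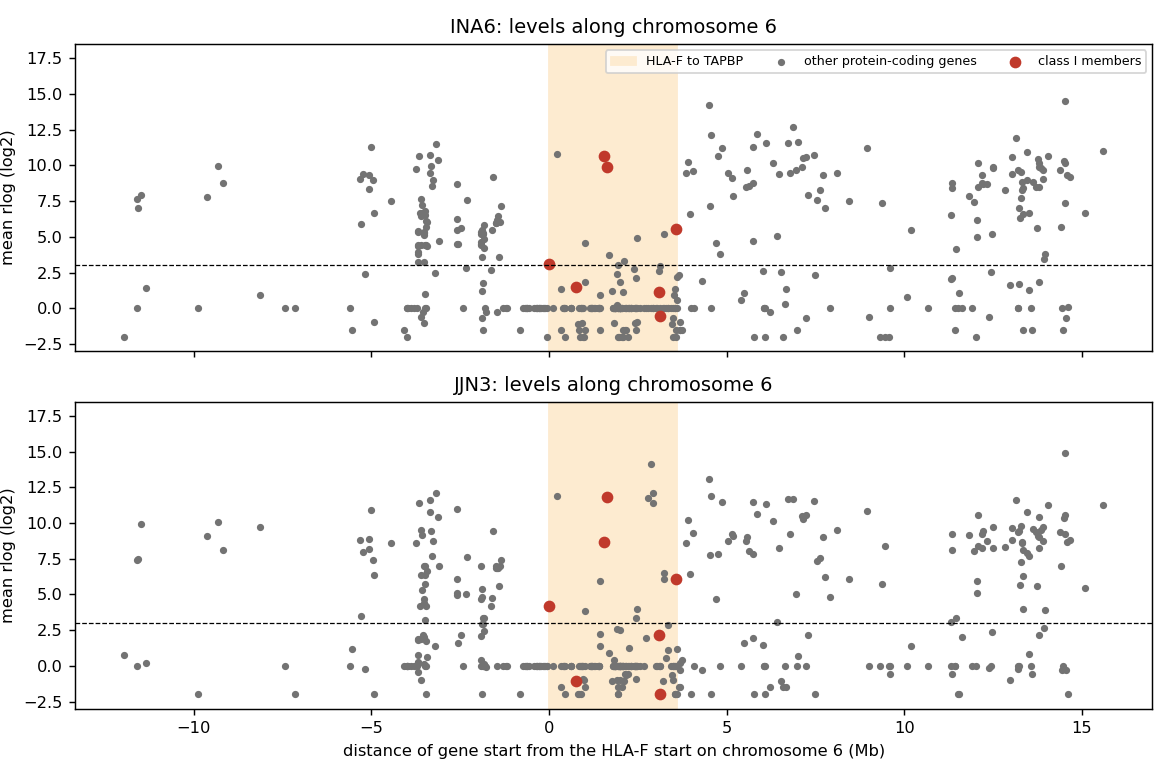
Mean rlog value (vertical axis, log2) of protein-coding genes along chromosome 6 by the distance of their start from that of HLA-F (horizontal axis, Mb), with INA6 above JJN3. The shaded span runs from HLA-F to TAPBP, red points are class I members and the dashed line is the minimum of 3; most grey points in the span lie at or near 0 in both lines.

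The class I members followed HLA-B across libraries to different degrees. After each gene's mean in its own line was subtracted, Pearson's r with HLA-B over the 12 libraries was 0.825 for HLA-F, 0.777 for HLA-C, 0.714 for NLRC5, 0.674 for B2M and 0.154 for TAPBP. Among the other 11136 genes tested in both lines these stood at ranks 367, 667, 1125, 1434 and 4630, so 366 genes followed HLA-B more closely than the nearest member did. The 3 genes with the highest r were TSPO (0.976), PLEKHN1 (0.966) and AKT1 (0.961), with differences of −0.65, −0.25 and −0.30 in INA6 and −0.13, −0.05 and −0.06 in JJN3. TSPO encodes a protein of the outer mitochondrial membrane and AKT1 a kinase of growth factor signalling. The 12 libraries share 2 lines and 2 arms, so these coefficients describe the pattern and carry no test.

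Around the members, 63 other genes of the class I pathway in 9 lists were described. Of the 53 tested in INA6, 18 were called higher (34.0%, beside 24.7% of all genes) and 12 lower (22.6%, beside 24.0%), with a median difference of 0.02. Of the 51 tested in JJN3, 20 were higher (39.2%, beside 25.5%) and 10 lower (19.6%, beside 25.5%), with a median of 0.05. In both lines 12 were higher and 7 lower, and 3, HSPA5 and JAK1 among them, had opposite calls. The matching shares over all genes tested in both lines were not computed, so these counts cannot be read as particular to the pathway. The counts of single lists given below rest on few genes and stand beside the same shares of all genes in each line.

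Proteasome genes, which supply the peptides, were called higher or not called. The list of immunoproteasome and activator genes had 3 of 5 members tested, all higher in INA6 and 2 higher in JJN3, with 0 lower. Over all tested genes, 24.7% were higher in INA6 and 25.5% in JJN3. PSMB10, a catalytic subunit of the immunoproteasome, averaged 7.65 ± 0.126 in knockdown and 7.39 ± 0.0339 in non-targeting libraries of INA6 (SD, n = 3 each), a difference of 0.26 (limma adjusted p = 0.00276), and its difference in JJN3 was 0.25 (limma adjusted p = 0.00049). PSME2, a subunit of the proteasome activator PA28, had differences of 0.28 and 0.21 in INA6 and JJN3 and was higher in both (limma adjusted p = 0.000736 and 0.00216). Its partner PSME1 was higher by 0.23 in INA6 (limma adjusted p = 0.00592, and 0.0522 without non-targeting replicate 2) and had a difference of −0.01 in JJN3 (0.931). PSMB8 was listed at 0 in all libraries and PSMB9 was under the minimum, and both genes lie in the chromosome 6 span described above. PSMB5, a constitutive catalytic subunit, was higher in INA6 by 0.31 and in JJN3 by 0.16 (limma adjusted p = 1.68e-05 and 0.00874). The JJN3 call was lost without knockdown replicate 2 (limma adjusted p = 0.0583) or 3 (0.0543).

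Chaperones of peptide loading and the enzymes that trim peptides moved in both directions. Of 7 chaperone genes, 2 were higher and 1 lower in INA6 and 3 were higher in JJN3. CALR, which encodes calreticulin of the peptide-loading complex, was higher in INA6 by 0.22 and in JJN3 by 0.42 (limma adjusted p = 0.000291 and 1.1e-08). HSPA5, the chaperone BiP, was lower in INA6 (−0.14, limma adjusted p = 0.0113, but 0.0643 without knockdown replicate 2 and 0.106 without non-targeting replicate 3) and higher in JJN3 (0.27, 4.9e-07), and the difference between lines of −0.41 was called (adjusted p = 1.33e-07 from the limma differences). Of 9 trimming genes, 4 were higher and 0 lower in INA6, and 4 were higher and 2 lower in JJN3. The cytosolic peptidases LAP3 (0.28 in INA6 and 0.21 in JJN3) and THOP1 (0.21 and 0.29) were higher in both lines. ERAP2, which trims peptides in the endoplasmic reticulum, was lower in JJN3 (−0.17, limma adjusted p = 0.00238) and had a difference of 0.04 in INA6 (0.537).

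Of the 8 partners of NLRC5 at the promoter, most were not called: 1 was higher and 2 lower in INA6, and 1 was higher and 1 lower in JJN3. NFYC, a subunit of the NF-Y factor that binds CCAAT, was higher by 0.30 in INA6 (limma adjusted p = 3.04e-05) and had a difference of 0.11 in JJN3 (0.0844). In JJN3 NFYC was called higher with median centring (0.14, limma adjusted p = 0.0324) and with quantile normalisation (0.14, 0.0382). CREB1, a factor that binds TGACG, was lower in INA6 (−0.17, limma adjusted p = 0.0119, but 0.0739 without knockdown replicate 2) and had a difference of −0.01 in JJN3 (0.887). RFXAP, a subunit of the RFX complex, was lower in both lines (−0.16 and −0.18, limma adjusted p = 0.0245 and 0.00737), though quantile normalisation ended both calls (limma adjusted p = 0.0976 and 0.105). The INA6 call of RFXAP was also lost with median centring (limma adjusted p = 0.0776) and without any 1 of 4 libraries, knockdown replicate 2 (0.0545) or 3 (0.0606) or non-targeting replicate 1 (0.0788) or 3 (0.0666), and the JJN3 call without knockdown replicate 2 (0.0534) or non-targeting replicate 2 (0.0590). RFX5, its partner, had −0.08 in INA6 (limma adjusted p = 0.158) and was higher by 0.14 in JJN3 (0.0027). With quantile normalisation RFX5 was lower in INA6 (−0.13, limma adjusted p = 0.0200) and not called in JJN3 (0.445). Polycomb repressive complex 2 is known to silence class I genes in some tumours, and its part in the class I differences was not tested. All 3 of its core genes were higher in INA6, beside 24.7% of all tested genes: EED by 0.37, SUZ12 by 0.27 and EZH2 by 0.23. In JJN3 EZH2 was higher by 0.16 (limma adjusted p = 0.0156, and 0.105 without non-targeting replicate 1), while EED had 0.01 and SUZ12 0.06 and were not called. Without knockdown replicate 3, however, SUZ12 was called higher in JJN3 (0.11, limma adjusted p = 0.0282). The difference between lines was called for EED (0.36, adjusted p = 0.00101 from the limma differences) and SUZ12 (0.21, 0.00696).

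Genes that carry the interferon signal, an inducer of class I, were called in both directions. Of the 12 tested, 3 were higher and 4 lower in INA6, and 6 were higher and 3 lower in JJN3. IFNGR1, a chain of the interferon gamma receptor, averaged 8.11 ± 0.0806 in knockdown and 8.56 ± 0.00826 in non-targeting libraries of INA6 (SD, n = 3 each), a difference of −0.44 (limma adjusted p = 2.19e-06). In JJN3 its difference was −0.23 (limma adjusted p = 0.00123). IRF9, the DNA-binding part of the type I interferon complex ISGF3, was higher by 0.39 and 0.29 (limma adjusted p = 3.41e-05 and 6.31e-05). JAK1, a kinase of the receptors of type I interferon and interferon gamma, was lower in INA6 (−0.27) and higher in JJN3 (0.19), with a called difference between lines of −0.46 (adjusted p = 4.52e-07 from the limma differences). It was named after its values were seen, as 1 of the 3 opposite calls. SOCS1, a feedback inhibitor of this pathway, was higher in JJN3 by 0.77 (limma adjusted p = 1.13e-11) and had a difference of 0.14 in INA6 (0.0911). In INA6 SOCS1 was called higher with median centring (0.17, limma adjusted p = 0.0335) and without knockdown replicate 1 (0.0321) or non-targeting replicate 1 (0.0391).

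Of the class I-like molecules, MR1 and HFE were lower in both lines and FCGRT was lower in INA6. They share the fold of class I heavy chains, and MR1, FCGRT and HFE pair with B2M. Of 9 such genes and stress ligands, 4 were tested in INA6, where 3 were lower, and 2 in JJN3, where both were lower. Over all tested genes, 24.0% were lower in INA6 and 25.5% in JJN3. MR1, which presents vitamin B metabolites to mucosal-associated invariant T cells, had values of 8.63, 8.41 and 8.50 in INA6 knockdown libraries, against 8.89, 8.99 and 9.12 in non-targeting libraries. In JJN3 it had 8.62, 8.47 and 8.52 in knockdown libraries, against 9.18, 9.18 and 9.27 in non-targeting libraries. No libraries overlapped, and the differences were −0.49 in INA6 and −0.67 in JJN3 (limma adjusted p = 2.86e-06 and 4.99e-12), 71.4% and 62.7% of the non-targeting level.

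FCGRT, the heavy chain of the neonatal Fc receptor, which recycles immunoglobulin G and albumin, had 5.83, 5.68 and 5.69 in INA6 knockdown libraries, against 6.42, 6.34 and 6.43 in non-targeting libraries. That is a difference of −0.67 (limma adjusted p = 4.45e-08), and the gene was under the minimum in JJN3. HFE, which regulates iron uptake, was lower in both lines (−0.25 and −0.17, limma adjusted p = 0.0052 and 0.000858). MR1 lies on chromosome 1 and FCGRT on chromosome 19, and HFE on chromosome 6 (26087429 to 26098343) lies outside the span of low values. Whether these genes differ from the classical chains was not tested.

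Of 6 genes of class I turnover at the surface, 5 were tested, with 1 higher and 2 lower in each line. MARCHF9, a ubiquitin ligase that removes class I from the surface, had differences of −0.47 in INA6 and −0.42 in JJN3 and was lower in both (limma adjusted p = 2.05e-07 and 1.42e-08). TMEM127, known to take part in class I degradation, was lower in both lines (−0.14 and −0.14, limma adjusted p = 0.0158 and 0.0104), though the INA6 call was lost with median centring (limma adjusted p = 0.0721) and without knockdown replicate 2 (0.0604) or non-targeting replicate 2 (0.0617) or 3 (0.0943). HM13, a signal peptide peptidase that also frees the leader peptides shown by HLA-E, was higher in both lines (0.16 and 0.38, limma adjusted p = 0.0245 and 3.95e-08). In INA6 the groups of HM13 overlapped, and the call was lost with quantile normalisation (limma adjusted p = 0.153), without the minimum (0.0546), without the trend (0.0501) and without knockdown replicate 2 (0.118) or 3 (0.0684) or non-targeting replicate 3 (0.203). HLA-H, a class I pseudogene and the 1 pseudogene of the list that was tested, had differences of 0.02 in INA6 and −0.10 in JJN3 and was not called (limma adjusted p = 0.812 and 0.112).

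**Figure D4:**
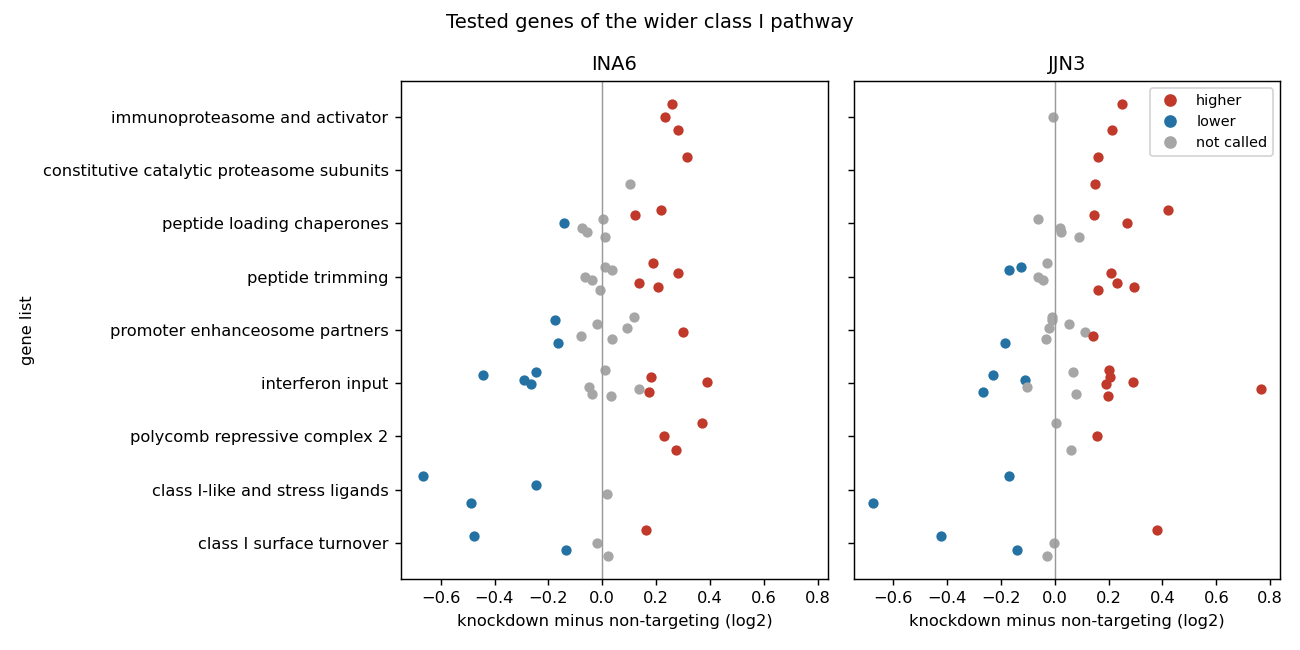
Knockdown minus non-targeting difference (horizontal axis, log2) of each tested gene of the 9 lists around class I presentation, with INA6 on the left and JJN3 on the right. Red points were called higher, blue ones lower and grey ones were not called; all tested immunoproteasome, activator and Polycomb genes are red in INA6, and the class I-like genes are blue except 1 in INA6.

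Markers of cell types that a plasma cell line should lack had low list means in both arms, though some single markers passed the minimum. Of the T and NK cell markers 3 passed it in INA6 and 1 in JJN3. Of the myeloid and dendritic markers 1 passed in INA6 and 2 in JJN3, and of the B cell markers 1 and 2. The mean of the 5 T and NK cell markers was 2.26 to 2.27 in knockdown and 2.26 to 2.31 in non-targeting libraries of INA6, and 2.15 to 2.16 and 2.16 to 2.23 in JJN3, with CD3E called lower in JJN3 (−0.18, limma adjusted p = 0.0108, but 0.0837 with quantile normalisation and 0.142 without non-targeting replicate 3). Of the 8 myeloid and dendritic markers, which mark cells rich in class I, 3 were at 0 in every library of each line, and the mean was 0.225 to 0.262 in knockdown and 0.223 to 0.237 in non-targeting libraries of INA6, and 1.06 to 1.09 and 1.06 to 1.08 in JJN3. Of the 5 stromal markers none passed the minimum, and 1 was at 0 in INA6 and 3 in JJN3. The mean of the 5 B cell markers was 2.90 to 2.93 in knockdown and 2.93 to 2.97 in non-targeting libraries of INA6, and 1.14 to 1.18 and 1.04 to 1.08 in JJN3. Among them, MS4A1, which encodes CD20, was at 0 in INA6, and in JJN3 it was higher (0.64) and CD79A lower (−0.15). The part of these levels in the class I differences was not tested.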

How the data were processed

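The 12 RNA libraries fall 3 in each of 4 groups (INA6 or JJN3, KANSL2 knockdown or non-targeting), taken from the titles. Another 4 JJN3 chromatin accessibility libraries were not analysed here. Library preparation used poly(A) capture and random hexamers, per the labels' protocols, and strandedness is not given there. The submitters' processing notes name Trim Galore, Bowtie2, HTSeq, DESeq2 and build hg38, without versions or settings.

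The authors deposited rlog values on the log2 scale, 1 table per line with 28277 symbols, of which 27661 matched a current or older name. The rlog transformation shrinks genes with few reads, so their changes are understated. Counts were not used, so depth is unknown and no interval for counting error was made. Libraries were compared in pairs, and 0 pairs were identical.

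Each line was tested apart, on genes whose mean was 3 or more, with limma 3.58.1 in R 4.3.3 (lmFit, eBayes with trend, no block), two-sided, with Benjamini-Hochberg adjustment over all tested genes; the method was tested on simulated data. The difference between lines divides the gap of the 2 within-line differences by its standard error (squares summed, root taken, degrees of freedom summed), adjusted over 11137 genes. An exact permutation test of 3 against 3 libraries has 0.1 as its smallest p and was not used. The alternatives were median centring, quantile normalisation, no minimum, a minimum of 5, eBayes without trend or with a robust prior, the replicate number as a block, 1 fit over both tables for the difference between lines, and leaving out each library.

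The members and gene lists were chosen with earlier results of these data known. All members are named, and of each other list up to 4 genes per line with the smallest adjusted p; exceptions are named as such, and 1 gene is not reported here. Coordinates and promoter sequences come from RefSeq on GRCh38.p14.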

Additional observations from a re-analysis of the deposited data

Results flagged for a closer look

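HLA-B differed between the lines by a test of the difference itself. Its knockdown minus non-targeting difference was −0.30 in INA6 and −0.05 in JJN3, so INA6 minus JJN3 was −0.24 on the log2 scale (adjusted p = 0.00338 from the limma differences). All 3 INA6 knockdown libraries were below all 3 non-targeting ones, whereas in JJN3 knockdown replicate 3 was above all of them. With quantile normalisation the JJN3 difference was −0.15 and was called (limma adjusted p = 0.00574). The difference between lines was called in each of the 20 alternatives run, from −0.30 to −0.18, with an adjusted p from the limma differences between 0.000177 and 0.0222. HLA genes share sequence, and the part of read assignment in this difference was not tested.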

How the results depend on the processing

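The calls of HLA-B and HLA-C in INA6 and of HLA-C in JJN3 held in all 13 alternatives run for each line, and that of HLA-F in INA6 in the 12 in which it could be tested, since a minimum of 5 removes it. The count of members lower in JJN3 was 1, and it was 2 with quantile normalisation, where HLA-B joined. Leaving out 1 library at a time it ran from 1 to 3. Replicate numbers were shared between arms. The deviations of same-numbered libraries correlated at −0.296 to −0.0678 in INA6 and −0.0140 to 0.00452 in JJN3. Those of differently numbered libraries correlated at −0.0686 to 0.240 in INA6 and −0.0556 to 0.0637 in JJN3. With 3 libraries per arm these values cannot show whether any libraries shared a batch or culture. With the replicate number as a block, 4 members were lower in INA6 and 1 in JJN3, and 2811 genes were higher and 2815 lower in INA6, and 3113 and 3092 in JJN3. In INA6 the limma adjusted p of B2M ran from 0.00450 to 0.148 over the alternatives, and 3 members were lower after median centring. The cause of these changes was not tested. The values hold no depth, which limits any statement on HLA-E, TAP1 and TAP2, and on HLA-F, which was close to the minimum in INA6.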
